A study of Mus musculus with 8 samples.

Results

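The genes described here are 45 DNA replication and S phase genes, taken by name from the 25239 genes of a bulk RNA-seq count table of mouse intestinal epithelial cells (IECs). They are a fixed list of names, chosen with earlier results of these data known and grouped here by what their proteins do. All 45 were in the table and all 45 were tested. Gene by gene, CD1d-KO IECs differed little from wild-type (WT) IECs in these genes. A single member, Dek, was called higher in CD1d-KO IECs, by 0.25 ± 0.08 on the log2 scale (SE, n = 4 and 4). Of all tested genes 4.03% were called in either direction, and the call of Dek was kept in 8 of 16 alternative fits. The log2 fold change was above 0 for 37 of the 45 members and below 0 for 8, with a median of 0.08. The 95% confidence interval of every member lay within 0.5 of 0 on the log2 scale. So did that of 9717 of the 15446 tested genes, and of every gene in a list of 35 mitosis and spindle genes.

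A cell copies its DNA once in each division, in S phase. In G1 the origin recognition complex, Cdc6 and Cdt1 load rings of Mcm2 to Mcm7 onto DNA, and at the start of S phase Cdc45 and the GINS complex turn these rings into active helicases. Primase and DNA polymerase alpha start each strand, polymerases epsilon and delta extend it on the PCNA clamp, and Fen1 and Lig1 join the pieces of the lagging strand. Many of these genes are transcribed at the G1 to S transition under the E2F family of transcription factors. In the small intestine cells divide in the crypts, where stem cells and transit-amplifying cells sit, while the villus cells above them have left the cell cycle.

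The study asked how natural killer T (NKT) cells, which recognise lipids presented by CD1d, shape the epithelium. It compared 4 samples from CD1d-KO mice, whose labels give both Cd1d1 and Cd1d2 as deleted, with 4 samples from WT C57BL/6Jax mice, none of them treated. CD1d-KO mice lack NKT cells, but the deletion is in every cell. A loss of CD1d on IECs and a loss of NKT cells therefore cannot be told apart in this comparison. The study also states that its mice were not littermates, so their microbiota may differ. It found other immune populations altered in the CD1d-KO intestine, and these cannot be separated from genotype here either. By gene set enrichment the study reported E2F and MYC targets and stem cell and proliferative crypt signatures as enriched in CD1d-KO IECs. By flow cytometry it reported a larger share of proliferating crypt cells. Those are other measures than the single genes described here, and they were not repeated. The mice were young adults by the study's methods, and the cells were sorted from proximal small intestinal crypts as EpCAM+ CD45- CD31- Ter119- cells. Neither sex nor experiment is labelled for any sample. RNA was measured from all sorted cells together, so a change in the number of cells in S phase and one in RNA per such cell cannot be told apart. By the study's methods the 4 samples of a genotype came from 4 mice, which the labels do not state, and p-values here measure the spread between these samples.

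The labels and the sort were checked first. Total counts per sample ran from 23610266 to 31629435. Cd1d1 had 8, 3, 5 and 0 counts in CD1d-KO samples 1 to 4 and 81, 70, 94 and 50 in WT samples 1 to 4. Epithelial genes were abundant in every sample, with Epcam at normalised counts of 52223 to 58699, and the haemoglobin genes Hba-a1 and Hbb-bs were at 0 in all 8. Counts of 4 Y-linked genes summed to 5574 and 6946 normalised counts in CD1d-KO samples 1 and 2 and to 0 or 1 in the others. By these counts only those 2 samples came from male mice. The study's methods give sex as matched between genotypes, which it was not in these samples. CD1d-KO samples 1 and 2 also stood apart on the first principal component (-11.9 and -11.5, against -1.59 to 8.93). A list of 14 gastric and Brunner gland markers, which are genes of the stomach and of the glands of the upper duodenum, summed to 832 to 1731 in CD1d-KO and to 2682 to 17509 in WT samples. In CD1d-KO samples 1 to 3 most of this sum was Gkn3, at 905, 823 and 522. Gkn3 did not differ detectably between genotypes (log2 fold change -0.08, adjusted p = 0.957 by DESeq2). A list of 19 leukocyte markers summed to 1272 to 10334 in CD1d-KO against 14615 to 20972 in WT samples, most of it from Cd74 and Itgam. These sums follow mainly those 2 genes and do not measure how many leukocytes were present. Ptprc, the gene of CD45, was at 34.9 to 86.4 in CD1d-KO and 69.7 to 119 in WT samples. Of the 15 genes of this list that were tested 5 were called lower in CD1d-KO, and the part of any leukocytes in the members' differences was not tested.

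The count of called members was near the share over all genes tested. DESeq2 with Benjamini-Hochberg adjustment called 622 of 15446 genes at an adjusted p under 0.05, which is 4.03%, and 1 of the 45 members. An unadjusted p under 0.05 was reached by 3 members, Dek, Pola1 and Ung, all with higher values in CD1d-KO, against 15.3% of all tested genes in either direction and 7.07% in that direction. The genotypes did not overlap, with CD1d-KO higher, in 0 of the 45 members and in 4.09% of tested genes. The direction was less even. A log2 fold change above 0 was found for 37 members, while 50.3% of all tested genes had one. The median was 0.08 for the members and 0.00 for all tested genes. The members were chosen with earlier results of these data known and move together across samples, so this count is not a test. The count above 0 was 31 without CD1d-KO sample 3 and 31 without WT sample 3. With the score of the gastric list as a covariate it was 6. edgeR's quasi-likelihood test called 0 members and gave an unadjusted p under 0.05 for 3. Without CD1d-KO samples 1 and 2 DESeq2 called 0 members, 2 members had an unadjusted p under 0.05 and the median was 0.07.

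**Figure D1:**
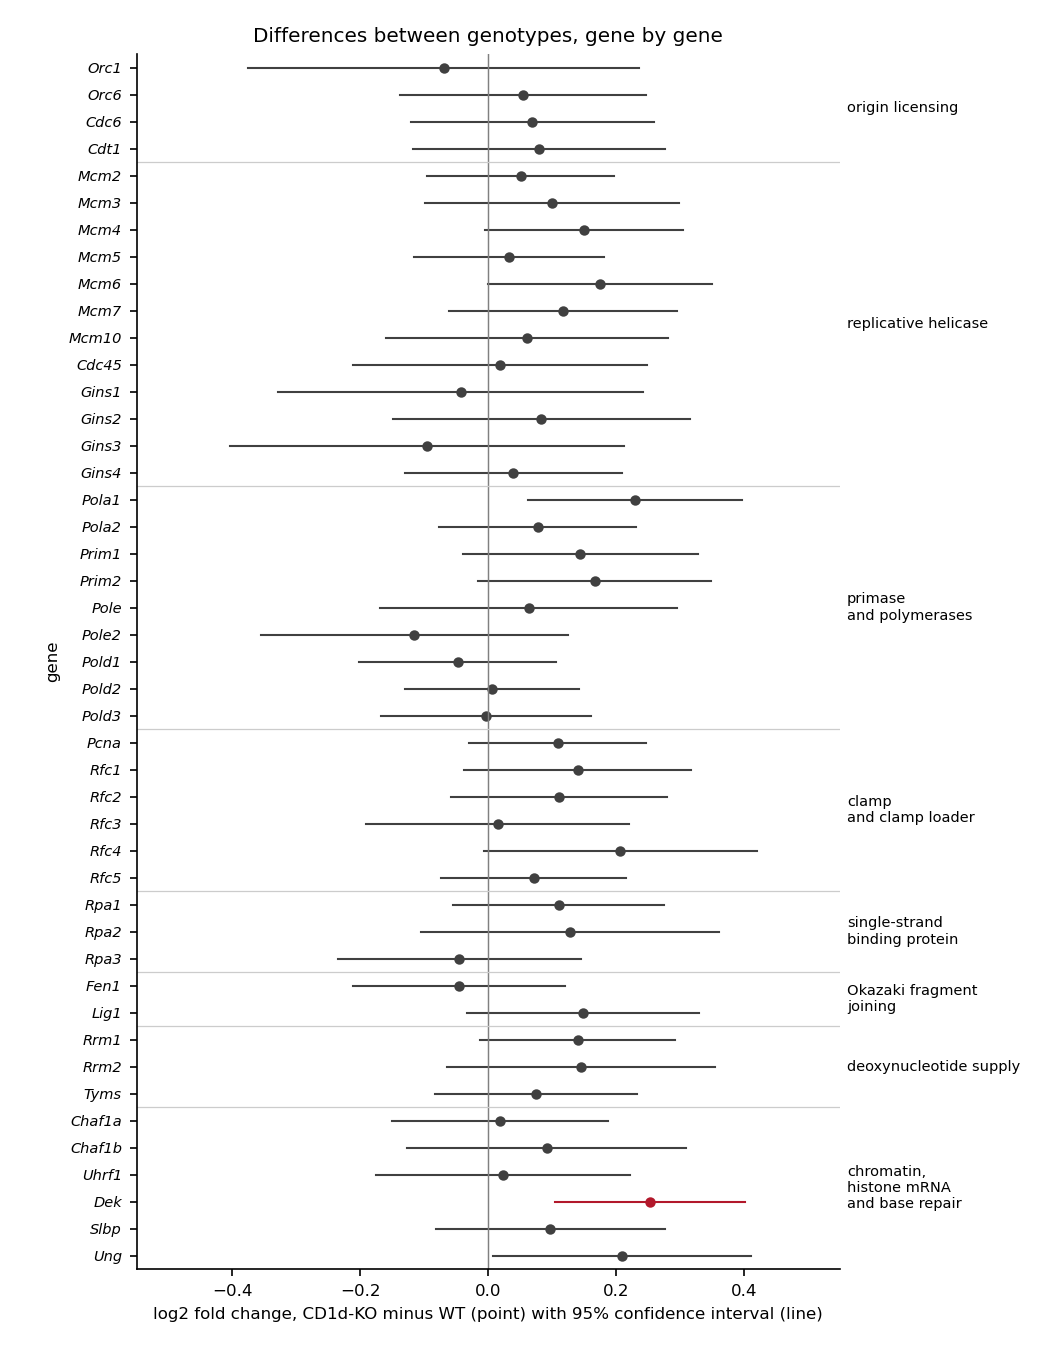
Log2 fold change of each of the 45 members between CD1d-KO and WT IECs (points, x axis, log2 scale) with its 95% confidence interval (lines), grouped by role. Most points lie to the right of 0 and most lines cross it, and the 1 called gene, Dek, is in red at 0.25.

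Dek, the member that was called, encodes an abundant chromatin protein that binds histones and DNA. Its normalised counts were 5427, 5746, 5292 and 4869 in CD1d-KO samples 1 to 4, against 4594, 4258, 4162 and 4889 in WT samples 1 to 4, the order kept for all genes here. The genotypes overlapped in a single pair, since CD1d-KO sample 4 lay just under WT sample 4. The means were 5333 ± 364 and 4476 ± 332 (SD, n = 4), a 1.19-fold difference, with an adjusted p of 0.0279 by DESeq2. The adjusted p was 0.105 by edgeR and 0.439 by DESeq2 without CD1d-KO samples 1 and 2, and the log2 fold changes there were 0.25 and 0.18. The DESeq2 call was also lost when CD1d-KO sample 1 (adjusted p = 0.0943), CD1d-KO sample 2 (0.174), WT sample 1 (0.0582), WT sample 2 (0.174) or WT sample 3 (0.133) was left out, with log2 fold changes of 0.25, 0.22, 0.27, 0.23 and 0.22. It was kept without CD1d-KO sample 3 (adjusted p = 0.0495, 0.26), CD1d-KO sample 4 (0.00838, 0.29) or WT sample 4 (0.00782, 0.30). In mm10, the build of the table, Dek lies on the minus strand at chr13:47084767-47106221, and 513 bases of its exons overlap those of Kdm1b. The counting used no strand and left out pairs that met both genes equally, so the level of Dek is uncertain to that extent.

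Pola1 and Ung were the other members with an unadjusted p under 0.05. Pola1, the catalytic subunit of DNA polymerase alpha, had normalised counts of 1915, 1939, 1958 and 1616 in CD1d-KO samples against 1618, 1569.9, 1443 and 1708 in WT samples. CD1d-KO samples 1 to 3 lay above every WT sample, and CD1d-KO sample 4 lay within the WT range. Its log2 fold change was 0.23 ± 0.09 (SE) with an adjusted p of 0.113 by DESeq2. Pola1 is on the X chromosome (mm10 chrX:93304766-93632155, minus strand), and without CD1d-KO samples 1 and 2 its log2 fold change was 0.18 with an adjusted p of 0.621. Ung, which encodes the uracil-DNA glycosylase that removes uracil from new DNA, had 1052, 909, 1045 and 798 in CD1d-KO against 882, 794, 776 and 839 in WT samples. Again CD1d-KO sample 4 lay among the WT samples. The log2 fold change of Ung was 0.21 ± 0.10 with an adjusted p of 0.298 by DESeq2, and without CD1d-KO samples 1 and 2 it was 0.16 with an adjusted p of 0.734.

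Promoter sequences of the members were searched for short words of DNA letters. They are RefSeq windows of build GRCm38.p6, the assembly that mm10 also names, from 250 bases before to 50 bases after an annotated start, and 38 of the 45 members had at least 1. Printed here are 160 bases up to the start for Dek and Pola1, the members with the smallest p, for Mcm6 and Mcm5, helicase members with overlapping E2F words, and for Pcna, the member with the highest level. Capitals mark matches to the E2F words TTTGGCGC, TTTCCCGC, TTTGCCGC and TTTCGCGC on either strand.
Dek (chr13:47106222-47106381, minus strand): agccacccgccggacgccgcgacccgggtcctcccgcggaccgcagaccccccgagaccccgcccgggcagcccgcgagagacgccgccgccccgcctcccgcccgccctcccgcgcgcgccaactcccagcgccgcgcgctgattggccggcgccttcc
Pola1 (chrX:93632156-93632315, minus strand): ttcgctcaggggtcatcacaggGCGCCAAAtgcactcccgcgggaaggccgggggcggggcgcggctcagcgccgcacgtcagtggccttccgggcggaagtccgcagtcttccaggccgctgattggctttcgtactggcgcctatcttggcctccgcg
Mcm6 (chr1:128359706-128359865, minus strand): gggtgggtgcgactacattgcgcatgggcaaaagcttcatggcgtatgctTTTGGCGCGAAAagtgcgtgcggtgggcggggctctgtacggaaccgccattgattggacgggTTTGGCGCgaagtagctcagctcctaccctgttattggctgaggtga
Mcm5 (chr8:75109349-75109508, plus strand): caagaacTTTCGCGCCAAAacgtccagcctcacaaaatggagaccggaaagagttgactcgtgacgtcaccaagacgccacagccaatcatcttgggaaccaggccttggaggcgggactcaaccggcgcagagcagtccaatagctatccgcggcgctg
Pcna (chr2:132253181-132253340, minus strand): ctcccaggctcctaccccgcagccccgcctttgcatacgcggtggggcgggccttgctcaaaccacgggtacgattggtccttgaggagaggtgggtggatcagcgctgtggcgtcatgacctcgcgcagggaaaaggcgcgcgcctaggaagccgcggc

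Mcm6 held 3 matches, at -110, -106 and -47 from the start, of which the first 2 overlap and read as 1 run of capitals. Mcm5 held 2 overlapping matches, at -153 and -149, and Pola1 held 1 at -138. Dek and Pcna held 0 in the window, which says only that these letters are not there. Of the 38 members with a window 15 held an E2F word, or 39.5%, against 4.33% of the 12078 tested genes with a window. The share was 27.0% in a list of other replication genes and 3.33% in a list of mitosis and spindle genes. A second word, TTTGAA, the cell cycle homology region (CHR) found in promoters of genes that peak in G2 and mitosis, went the other way, with 15.8% of members, 76.7% of mitosis genes and 14.8% of tested genes. The CCAAT box was found in 65.8% of members, 73.3% of mitosis genes and 42.6% of tested genes. These are matches of letters and were not measured as binding.

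**Figure D2:**
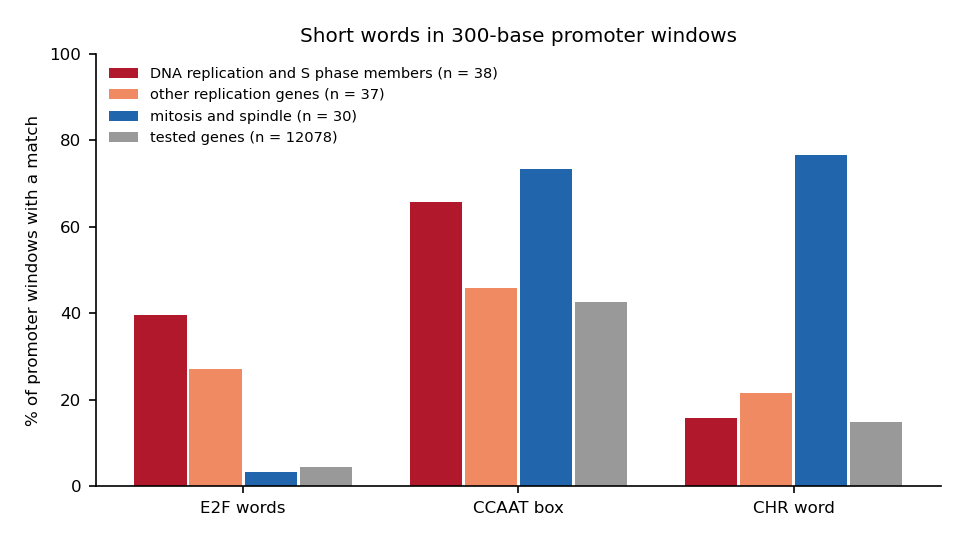
Share of promoter windows (y axis, %) that hold an E2F word, a CCAAT box or the CHR word on either strand, for 38 members, 37 other replication genes, 30 mitosis genes and 12078 tested genes. E2F words are most frequent in the members at 39.5%, and the CHR word in the mitosis genes at 76.7%.

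Within the members the levels spread over 31.6-fold per exon length, and Pcna and Dek led and Gins3 and Orc1 came last in both genotypes. Levels are given here as normalised counts per 1000 bases of exon, so that genes can be compared. Pcna, the sliding clamp, was highest with 3366 ± 232 in CD1d-KO against 3123 ± 174 in WT (SD, n = 4), followed by Dek with 2050 ± 140 and 1720.1 ± 128. Mcm6, Mcm7, Rpa3, Rrm1, Pold2, Rfc2, Slbp, Uhrf1, Mcm5 and Prim1 followed with means over all 8 samples of 1555 to 1011. Neighbours in that order lay within the spread of the samples. At the other end were Gins3 (99.4 ± 15.6 in CD1d-KO against 106 ± 17.6 in WT), Orc1 (102 ± 22.9 and 108 ± 10.1) and Cdc6 (154 ± 17.3 and 146 ± 8.71), with Gins3 and Orc1 inside each other's spread.

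**Figure D3:**
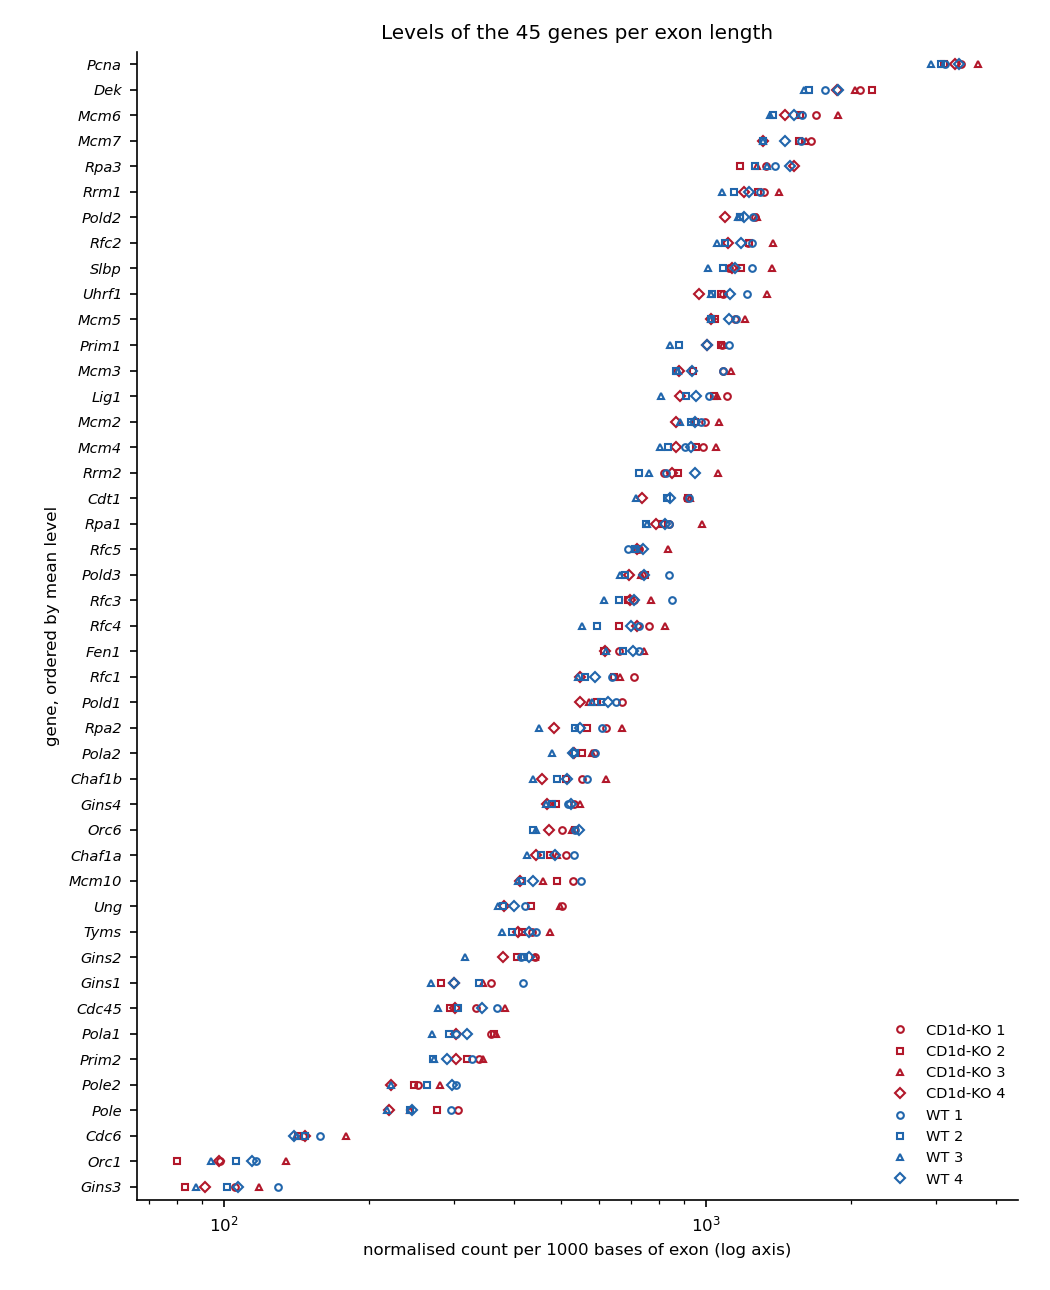
Normalised count per 1000 bases of exon (x axis, log scale) of each member in each of the 8 samples, ordered by the mean. Pcna is highest and Gins3 and Orc1 are lowest, and red (CD1d-KO) and blue (WT) symbols overlap for every gene.

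Origin licensing genes did not differ detectably between genotypes. Cdt1, which brings the Mcm rings to origins, had 2001, 2012, 2032 and 1615 in CD1d-KO against 2018, 1819, 1569.6 and 1846 in WT samples. Cdc6, the ATPase that loads them with Cdt1, had 731, 716, 901 and 739 in CD1d-KO against 796, 739, 707 and 701 in WT samples. In both genes a single CD1d-KO sample lay apart from the other 3, sample 4 below for Cdt1 and sample 3 above for Cdc6. The log2 fold changes were 0.08 ± 0.10 and 0.07 ± 0.10, and those of the origin recognition subunits were -0.07 ± 0.16 for Orc1 and 0.05 ± 0.10 for Orc6. The adjusted p of these 4 genes was 0.815 to 0.915 by DESeq2.

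Of the 12 helicase genes 10 had a log2 fold change above 0 and 0 were called. Mcm6 had normalised counts of 7486, 6948, 8333 and 6452 in CD1d-KO against 7022, 6093, 6024 and 6749.7 in WT samples. Mcm4 had 3540.4, 3423, 3756 and 3113 in CD1d-KO against 3253, 2999, 2876 and 3344 in WT samples. In both genes CD1d-KO sample 3 was highest and WT sample 3 lowest, and the genotypes overlapped. Mcm6 differed by 0.17 ± 0.09 and Mcm4 by 0.15 ± 0.08 on the log2 scale, with adjusted p of 0.332 and 0.354 by DESeq2. The other ring subunits differed by 0.12 (Mcm7), 0.10 (Mcm3), 0.05 (Mcm2) and 0.03 (Mcm5). The activating factors lay on either side of 0, with Gins2 at 0.08, Mcm10 at 0.06, Gins4 at 0.04, Cdc45 at 0.02, Gins1 at -0.04 and Gins3 at -0.10.

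The 6 ring subunits, which act in equal number in the ring, were also close in RNA level. Per exon length Mcm6 was the highest of Mcm2 to Mcm7 in all 8 samples, and the highest subunit exceeded the lowest by 1.64-fold to 1.80-fold. The 4 GINS genes, whose proteins also act in equal number, spread more widely, by 3.99-fold to 5.90-fold, with Gins4 at a mean of 503 and Gins3 at 103 per 1000 bases. The mean of the ring subunits was 3.16 to 3.71 times the mean of the GINS genes across the 8 samples, with no separation of the genotypes. Gins2 shares 118 bases of exon with Gse1, so its level is uncertain.

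Primase and polymerase genes ran from the lowest log2 fold change of all members to the second highest. Prim2, the large primase subunit, had 668, 629.6, 679 and 598 in CD1d-KO against 646, 537, 539 and 572 in WT samples, a difference of 0.17 ± 0.09. Pold2, a small subunit of polymerase delta and the highest of this group per exon length, had 2139, 1989.6, 2161 and 1859 in CD1d-KO against 2121, 1994, 1970.0 and 2031 in WT samples, a difference of 0.01 ± 0.07. The CD1d-KO range of Pold2, which shares 69 bases of exon with Aebp1, enclosed the whole WT range. Prim1, the catalytic primase subunit, differed by 0.14, Pola2 by 0.08 and Pole, the polymerase of the leading strand, by 0.06. Values below 0 were found for Pole2 (-0.12 ± 0.12), Pold1 (-0.05 ± 0.08) and Pold3 (-0.00 ± 0.08). Apart from Pola1, the adjusted p of this group was at least 0.397 by DESeq2.

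All 6 genes of the clamp and its loader had a log2 fold change above 0, and 0 were called. Pcna had 4254, 3936, 4632 and 4144 in CD1d-KO against 3949.6, 3882, 3689 and 4219 in WT samples. Rfc4, a small subunit of the loader, had 924, 803, 1002 and 877 in CD1d-KO against 882, 723, 673 and 848 in WT samples. Rfc1, the large subunit, had 3356, 3046, 3129 and 2585 in CD1d-KO against 3014, 2647, 2559 and 2776 in WT samples. The genotypes overlapped in each, and WT sample 3 was the lowest sample of all 3 genes. The differences were 0.11 ± 0.07 for Pcna, 0.21 ± 0.11 for Rfc4 and 0.14 ± 0.09 for Rfc1, with adjusted p of 0.506, 0.357 and 0.501 by DESeq2. Rfc2, Rfc5 and Rfc3 differed by 0.11, 0.07 and 0.01. Exons of Rfc4 overlap those of Eif4a2 over 160 bases.

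Replication protein A, which coats single-stranded DNA at the fork, has 3 subunits, and 0 of them were called. Rpa1 had 2603, 2519, 3042 and 2441 in CD1d-KO against 2607, 2328, 2344 and 2550.2 in WT samples. Rpa2 had 1104, 1009.6, 1194 and 862 in CD1d-KO against 1082, 955, 804 and 977 in WT samples. Rpa3, the smallest subunit, had 852, 751, 815 and 972 in CD1d-KO against 886, 807, 855 and 951 in WT samples. CD1d-KO sample 3 was highest for Rpa1 and Rpa2, whereas CD1d-KO sample 4, low for most members, was highest for Rpa3. The log2 fold changes were 0.11 ± 0.08, 0.13 ± 0.12 and -0.05 ± 0.10, with adjusted p of 0.604, 0.704 and 0.908 by DESeq2, and differences between the subunits were not tested.

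The 2 genes that finish the lagging strand went to opposite sides of 0. Lig1, the ligase, had 3889, 3664, 3712 and 3106 in CD1d-KO against 3578, 3197, 2842 and 3358 in WT samples. Fen1, the flap nuclease, had 1714, 1598, 1932 and 1604 in CD1d-KO against 1883, 1744, 1614 and 1829 in WT samples. The differences of 0.15 ± 0.09 and -0.05 ± 0.08 had adjusted p of 0.483 and 0.884 by DESeq2, and the difference between these genes was not tested. Both share a little exon sequence with a neighbour, Lig1 with Zswim9 (116 bases) and Fen1 with Tmem258 (63 bases).

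Genes that supply deoxynucleotides had the highest median of the groups, 0.14, with 0 of 3 called. Rrm1, the large subunit of ribonucleotide reductase, had 5277, 5134, 5667 and 4805 in CD1d-KO against 5169, 4568, 4319 and 4901 in WT samples. Rrm2, the small subunit, which is made in S phase, had 1780.1, 1911, 2308 and 1857 in CD1d-KO against 1799, 1582, 1658 and 2069 in WT samples. The high value of Rrm2 in CD1d-KO sample 3 was matched most nearly by WT sample 4. Rrm1 differed by 0.14 ± 0.08, Rrm2 by 0.14 ± 0.11 and Tyms, the thymidylate synthase, by 0.07 ± 0.08, with adjusted p of 0.393, 0.582 and 0.762 by DESeq2. The remaining chromatin and histone RNA genes were Slbp, which binds histone mRNA (0.10 ± 0.09), the histone chaperone subunits Chaf1b (0.09 ± 0.11) and Chaf1a (0.02 ± 0.09), and Uhrf1, which brings DNA methylation to new DNA (0.02 ± 0.10).

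For most members the difference between genotypes was smaller than the SD within a genotype, as it was for most genes of like level. The SD of log2 values within a genotype had a median of 0.133 over the 45 members, against 0.107 over the 8944 tested genes in the same range of mean counts. The median size of the log2 fold change was 0.0832 over the members and 0.0829 over those genes. It was larger than the gene's own SD in 12 of the 45 members, or 26.7%, and in 38.8% of those genes. The lowest count of a member in a sample was 210, and 29 members had at least 1000 counts in every sample.

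**Figure D4:**
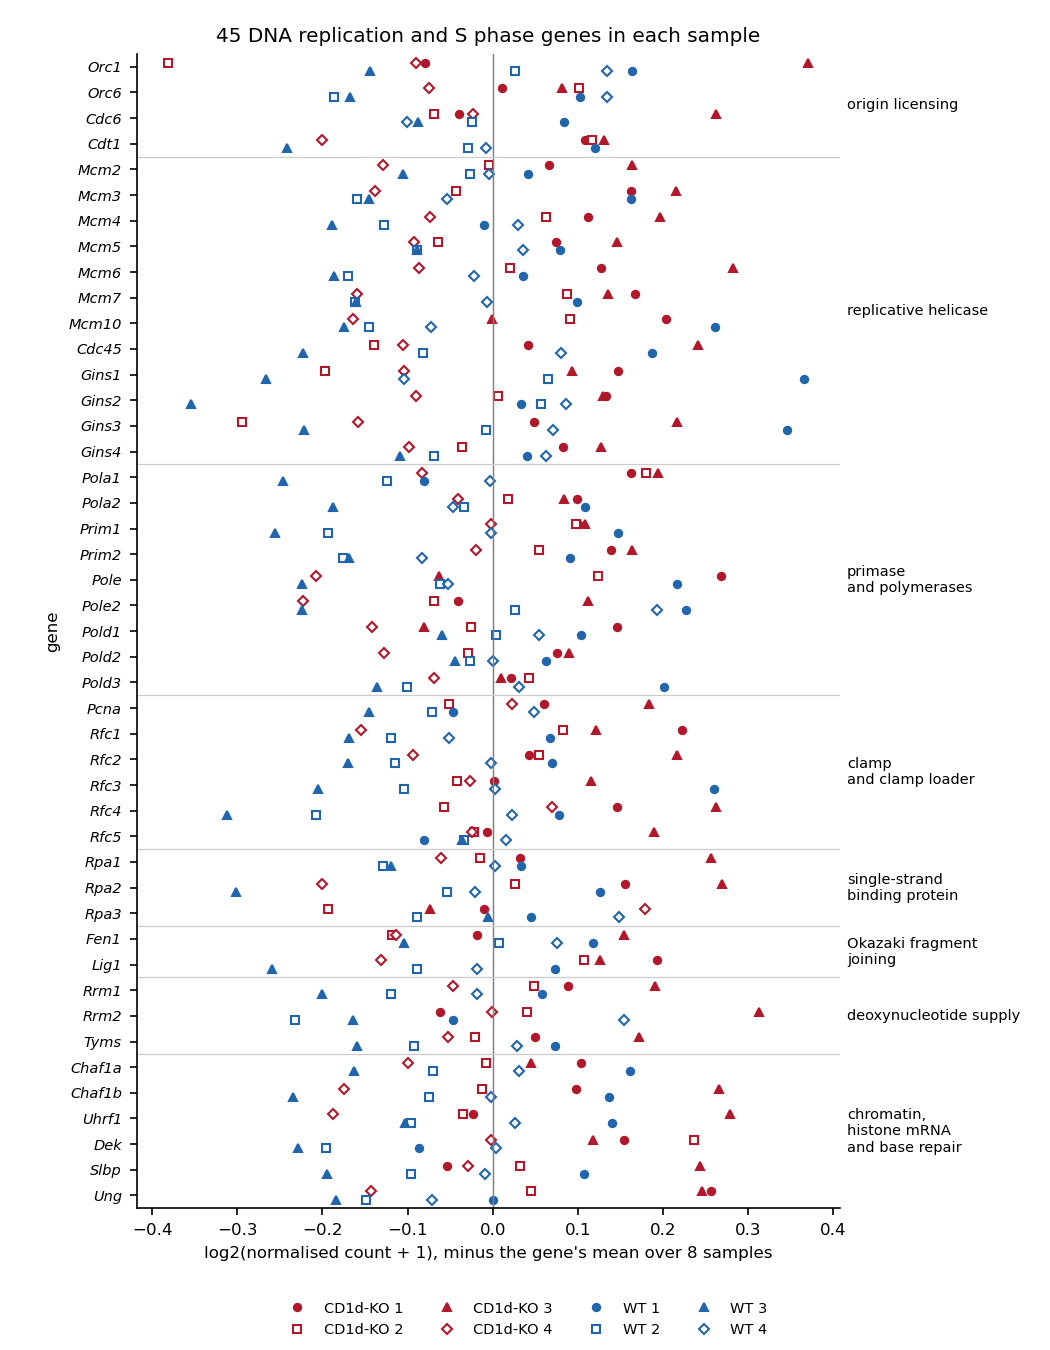
Log2 of normalised count plus 1, minus the gene's mean over the 8 samples (x axis), for each member and sample, with CD1d-KO in red above WT in blue. CD1d-KO sample 3 (red triangles) lies furthest right in 26 rows and WT sample 3 (blue triangles) furthest left in 28. These are only partly the same rows, and elsewhere another sample lies at an end.

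As a mean score, the genotypes overlapped. The score of a sample is the mean over the 45 members of log2(normalised count + 1), centred on each gene's mean over the 8 samples. It was 0.08, -0.01, 0.16 and -0.09 in CD1d-KO samples 1 to 4 and 0.10, -0.09, -0.17 and 0.02 in WT samples 1 to 4. CD1d-KO sample 3 was highest and WT sample 3 lowest, and WT sample 1 lay above 3 of the 4 CD1d-KO samples. The means of 0.04 ± 0.11 and -0.04 ± 0.12 (SD, n = 4) differed by 0.07, less than either SD, and by 0.07 without CD1d-KO samples 1 and 2. The difference was 0.03 without CD1d-KO sample 3, 0.03 without WT sample 3 and 0.12 without WT sample 1 or CD1d-KO sample 4.

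The same samples led gene after gene. CD1d-KO sample 3 had the highest value in 26 of the 45 members, WT sample 1 in 9 and CD1d-KO sample 1 in 7, while WT sample 3 had the lowest value in 28. Of the 8 role groups WT sample 3 had the lowest score in 8 and CD1d-KO sample 3 the highest in 7, the exception being primase and polymerases, led by WT sample 1. Reads of the members made up 0.279% of all counts in WT sample 3 and 0.349% in CD1d-KO sample 3, the ends of the range.

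Marker lists of other cell types also differed between samples. The score of the gastric and Brunner gland list was -2.72, -2.54, -2.44 and 0.33 in CD1d-KO samples 1 to 4 and 0.78, 1.11, 3.19 and 2.30 in WT samples 1 to 4. Thus it did not overlap between genotypes, and within each genotype the sample with the highest gastric score, CD1d-KO sample 4 and WT sample 3, had the lowest score of the members. Of the 12 list genes tested 5 were called lower and 1 higher in CD1d-KO. Muc5ac, a gastric mucin, was at 0 in CD1d-KO samples 1 to 3 and at 2350 in WT sample 3. With this score as a covariate in DESeq2 the median of the members was -0.17, 6 of the 45 had a log2 fold change above 0, 0 were called, and that of Dek was 0.09 with an adjusted p of 0.904. Since the score separates the genotypes, its share and that of genotype cannot be told apart. Stem cell markers, a list of 10 genes of which DESeq2 called 0, had a score of 0.26, 0.20, -0.10 and -0.20 in CD1d-KO against 0.19, -0.17, -0.17 and -0.00 in WT samples. The WT samples stood in the same order by this score as by that of the members, though samples 2 and 3 were nearly equal, and CD1d-KO sample 4 was lowest of its genotype in both, while CD1d-KO sample 3, highest for the members, was not high for stem cell markers. WT sample 3 had the highest score of the goblet cell list (0.48) and of the tuft cell list (0.43). All 8 tuft genes had a log2 fold change below 0, and DESeq2 called 1 lower in CD1d-KO and 0 higher. Of the 8 goblet genes 7 were below 0 and 0 were called. The Paneth cell score was 0.23, -0.36, 0.23 and 0.68 in CD1d-KO against -0.05, -0.06, -0.27 and -0.42 in WT samples. Of the 8 Paneth genes 7 had a log2 fold change above 0, and DESeq2 called 2 higher in CD1d-KO and 0 lower. The part of these cells in the members' values was not tested. The enterocyte score was -0.29, 0.09, 0.43 and 0.33 in CD1d-KO against -0.27, 0.07, 0.06 and -0.41 in WT samples. With it as a covariate the median was 0.12, and Dek (adjusted p = 0.00119) and Pola1 (0.0436) were called by DESeq2.

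**Figure D5:**
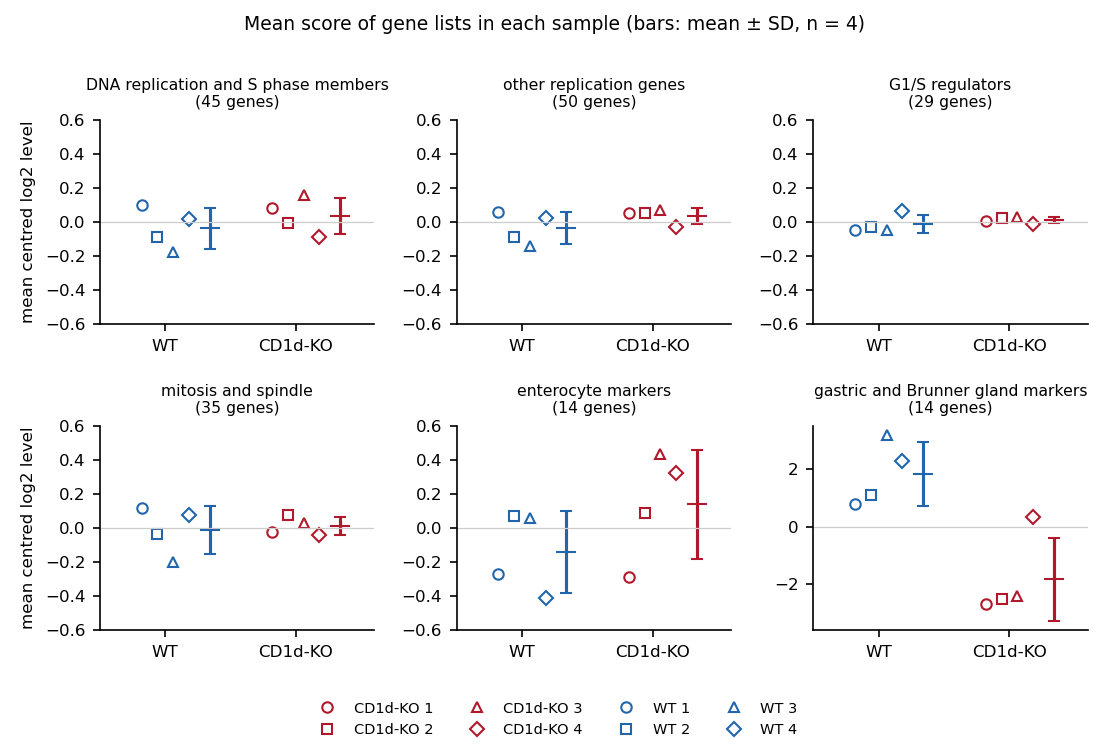
Mean centred log2 level (y axis) of 6 gene lists in each sample, by genotype, with the mean ± SD of 4 samples beside the points. The last panel has a wider y axis. Scores of the 45 members overlap between genotypes, while those of the gastric and Brunner gland list do not.

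Other genes of the pathway and of the cycle were described from 3 further lists. Of 50 other replication genes 39 had a log2 fold change above 0, with a median of 0.07, and DESeq2 called 0 of them and gave 7 an unadjusted p under 0.05, all with higher values in CD1d-KO. Dck, which salvages deoxynucleosides (0.25 ± 0.09, adjusted p = 0.108 by DESeq2), and Clspn, a fork checkpoint mediator (0.28 ± 0.11, adjusted p = 0.160), were among those 7, and in both the genotypes overlapped. The genotypes did not overlap, with CD1d-KO higher, in 2 of the 50 genes, against 4.09% of tested genes.

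Regulators of the G1 to S transition and genes of mitosis stood nearer to 0. Of 29 regulators 18 had a log2 fold change above 0, the median was 0.02, 0 were called by DESeq2 and 3 had an unadjusted p under 0.05. These were E2f8, a repressing E2F (0.17 ± 0.08), E2f4 (-0.12 ± 0.06) and E2f2 (-0.12 ± 0.06), with adjusted p of 0.263, 0.282 and 0.313. E2f4 was the 1 regulator in which the genotypes did not overlap, with CD1d-KO lower, as in 852 of the 15446 tested genes. Of 35 mitosis and spindle genes 18 were above 0, the median was 0.01, 0 were called by DESeq2 and 2 had an unadjusted p under 0.05. Cdc20, an activator of the anaphase-promoting complex, differed by -0.20 ± 0.09, Ect2, which acts in cytokinesis, by 0.17 ± 0.08 and the spindle motor Kif11 by 0.13 ± 0.07, with adjusted p of 0.243, 0.259 and 0.378. Exons of E2f8 and Cdc20 overlap those of Gm2788 and Elovl1. By edgeR 0 genes of these 3 lists were called. The mitosis score was lowest in WT sample 3 (-0.20) as well, but highest in WT sample 1 (0.12) and not in CD1d-KO sample 3 (0.03). Differences between these lists and the members were not tested.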

How the data were processed

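The authors deposited 1 table of counts of read pairs per gene for the 8 samples, raw and with no normalisation. Per the file headers it was made with featureCounts 1.6.4 over exons grouped by gene, from primary alignments, without strand, on an mm10 annotation. Alignment by HISAT2 to GRCm39 is what the methods of the study give. All coordinates are those of the table or of RefSeq GRCm38.p6. KAPA mRNA libraries were sequenced. Intervals rest on the spread between samples, so they do not cover a bias of sorting or library preparation shared by a whole genotype.

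All genes were fitted with DESeq2 1.42.0 in R 4.3.3, with genotype as the only term and median-of-ratios size factors, and p-values were adjusted over 15446 genes by the Benjamini-Hochberg method. The threshold was an adjusted p under 0.05. Confidence intervals are 95% Wald intervals. edgeR 4.0.16, TMM factors, a filter of 10 counts in at least 4 samples, no independent filtering, a replicate block, covariates for gastric or enterocyte scores, each sample left out and both samples with Y-linked counts left out were alternatives. Scores were given no test. Replicates were compared by chi-square over 13710 genes, and none were copies. The DESeq2 and edgeR fits were tested on simulated data with changes larger than those of the members. This does not show how they perform at differences as small as those here.

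The members, gene lists, tests and alternatives were chosen with earlier results of these data known. All members are named. Values in every sample are given for called members and, in each role, for the 2 members with the smallest unadjusted p and the highest per exon length. Of the other lists, called genes or otherwise the 3 with the smallest p are named, except 1 gene that is not reported here. The marker genes named beside their lists, Mcm5 among the promoters and Gins3, Orc1 and Cdc6 among the levels were picked with values in view. The table held 0 per-sample columns that were not used.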

Additional observations from a re-analysis of the deposited data

Results flagged for a closer look

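Among 98 groups of 4 samples examined, 8 held a sample far from the other 3, where chance gives about 1 in 20. The measure is the gap of that sample to its nearest neighbour, as a share of the range of the 4. CD1d-KO sample 4 lay below the other CD1d-KO samples for Cdt1 (1615, nearest 2001, share 0.925), Pola1 (1616, nearest 1915, share 0.875), Prim1 (1540.0, nearest 1651, share 0.894) and the score of other replication genes (-0.03, nearest 0.05, share 0.833). CD1d-KO sample 3 lay above for Cdc6 (901, nearest 739, share 0.876) and Rfc5 (1442, nearest 1258, share 0.922). WT sample 3 lay below for Gins2 (328, nearest 429, share 0.864), and WT sample 4 lay above for the score of regulators of the G1 to S transition (0.07, nearest -0.03, share 0.856).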

How the results depend on the processing

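The call of Dek was kept in 8 of 16 alternatives. edgeR called 228 genes and 0 members. With CD1d-KO samples 1 and 2, which held Y-linked counts, left out, 372 genes and 0 members were called, and values changed sign for Orc1 (0.11), Mcm10 (-0.057), Pole (-0.11), Pold2 (-0.012), Rpa3 (0.033), Fen1 (0.0018) and Chaf1a (-0.019). The enterocyte covariate gave 2 called members, 12 with an unadjusted p under 0.05, and changed the sign of Gins1 (0.020), Pold1 (0.037) and Pold3 (0.059). The gastric covariate gave 111 called genes, 0 called members, a median of -0.17 and a score difference of -0.16. It moved 33 members across 0: Orc6 -0.11, Cdc6 -0.069, Cdt1 -0.34, Mcm2 -0.17, Mcm3 -0.21, Mcm4 -0.057, Mcm5 -0.13, Mcm6 -0.073, Mcm7 -0.20, Mcm10 -0.33, Cdc45 -0.25, Gins2 -0.24, Gins4 -0.13, Pola1 -0.038, Pola2 -0.14, Prim1 -0.072, Prim2 -0.035, Pole -0.40, Pold2 -0.17, Rfc1 -0.20, Rfc2 -0.12, Rfc3 -0.20, Rpa1 -0.044, Rpa2 -0.34, Rpa3 0.19, Lig1 -0.21, Rrm1 -0.075, Tyms -0.10, Chaf1a -0.22, Chaf1b -0.29, Uhrf1 -0.26, Slbp -0.088 and Ung -0.13. The 4 members with an unadjusted p under 0.05 there were all lower in CD1d-KO. The cause was not tested in any of these. Same-numbered samples of the genotypes deviated with correlations of 0.202, 0.00438, 0.193 and -0.0309, so the numbers were not taken to pair them. The replicate block gave 569 called genes and 1 called member, and turned only Pold3 (0.0018).

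Leaving out 1 sample at a time gave 323 to 646 called genes, 0 to 2 called members, 2 to 11 members with an unadjusted p under 0.05, a median of 0.03 to 0.13 and a score difference of 0.03 to 0.12. Ranges that crossed 0 were -0.23 to 0.034 for Orc1, -0.014 to 0.11 for Cdc6, -0.012 to 0.068 for Mcm5, -0.064 to 0.087 for Cdc45, -0.13 to 0.088 for Gins1, -0.011 to 0.13 for Gins2, -0.19 to 0.015 for Gins3, -0.019 to 0.15 for Pole, -0.024 to 0.047 for Pold2, -0.048 to 0.068 for Pold3, -0.049 to 0.11 for Rfc3, -0.12 to 0.0093 for Rpa3, -0.032 to 0.078 for Chaf1a and -0.075 to 0.085 for Uhrf1. TMM factors, the filter on low counts, no independent filtering, a pseudocount of 10, dividing each gene by its SD and a median over members changed no call and no direction.

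Limits are the 4 samples a genotype, mice that were not littermates, a gastric signal that follows genotype and Y-linked counts in CD1d-KO samples only. The annotation build also differs from the build named for alignment.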
